A study of Mus musculus with 6 samples.

Results

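The proteasome subunit genes are the 46 genes, of 12826 in the deposited table, whose name is Psm, a letter from a to g and a number. By name they are 17 core genes (Psma and Psmb), 6 base genes (Psmc), 14 genes of the Psmd series, listed with the lid, 4 activator genes (Psme) and 5 assembly genes (Psmf and Psmg). They were measured in ETX-embryos, structures that mouse embryonic, trophoblast and extraembryonic endoderm stem cells form in culture. Per the labels, the structures were grown from a line with a T/Brachyury-GFP reporter and received no treatment. Their trophoblast stem cell compartment was cut off and the embryonic stem cell compartment was cut lengthwise into a GFP-negative piece, called anterior, and a GFP-positive piece, called posterior. The 6 libraries are the anterior (Side1) and posterior (Side2) pieces of 3 individual ETX-embryos, A, B and C, prepared by Smart-seq2.

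The proteasome is the protease that degrades ubiquitin-tagged proteins in the cytosol and nucleus. Its barrel-shaped core has outer rings of alpha subunits, which gate the entrance, and inner rings of beta subunits, some of which carry the cutting sites. A regulatory cap of base and lid recognises, unfolds and feeds in the substrate, alternative activators can replace the cap, and dedicated chaperones put the parts together. Pluripotent stem cells are known for high proteasome activity. Most subunit genes are general housekeeping genes, apart from the interferon-induced and thymus forms described below.

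Values below are levels in log2(FPKM + 1) unless FPKM is named, where FPKM is the number of fragments scaled by transcript length and library depth, so that genes can be compared per length. Values of a gene are given in the order of embryos A, B and C, the anterior side first. A difference is the posterior minus the anterior value on that log2 scale, which understates the change of low genes. The libraries differed in quality along the axis of the comparison. Between 9335 and 11082 genes were above 0 in the anterior libraries and between 10260 and 12141 in the posterior ones. The depth relative to anterior A, read from the steps of whole reads in low genes, was estimated at 1.41 and 1.42 in anterior B and C. On the posterior side it was 1.55 to 2.81. These depths are approximate, as 12 of 15 library pairs lay within 0.05 in log2 of them. Set directly against anterior B, posterior A and B read -0.37 and -0.005 in log2, so they were not deeper by that reading. Over all 10914 genes tested the median difference was 0.43 (0.91, 0.02 and 0.17 by embryo), so differences of the proteasome genes are set beside that shift. T itself was at 0, 0 and 5.44 on the anterior side and at 2.59, 4.05 and 0 on the posterior side, so in embryo C it went against the labels. Anterior C and posterior C below stand for the libraries so labelled, and the main directions are also given without embryo C. In a bulk piece, fewer cells of a type and less RNA per cell cannot be told apart. Markers of visceral endoderm stood on average at 1.52, 1.13 and -1.71 relative to the median gene of the anterior libraries and at -0.90, 0.27 and -1.03 on the posterior side. Those of parietal endoderm and XEN cells (extraembryonic endoderm stem cells) stood at 2.29, 1.78 and -1.35 and at 0.03, -0.02 and 1.05, and those of the epiblast at -1.18, -1.11 and 0.53 and at 1.62, 0.49 and 0.85. Those of the streak and nascent mesoderm stood at -2.07 or lower on the anterior side and at 0.54, 0.15 and 0.65 on the posterior side. Those of the trophoblast stood at 0.49, -0.31 and -0.64 on the anterior side and at -0.36, 0.51 and 0.36 on the posterior side, with overlap. Of the trophoblast markers 8, 8 and 7 of 11 were above 0 in the anterior and 11, 11 and 9 on the posterior side. The part of these markers, of depth and of single libraries in the results below was not tested beyond the values given.

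Proteasome genes were among the well-expressed genes of every library. Their median level was 4.46, 6.16 and 5.36 on the anterior side and 6.27, 6.30 and 6.16 on the posterior side, which is 1.94 to 2.93 above the median tested gene of the same library. The 3 posterior libraries lay within a narrow band and anterior A lay lowest. The summed level of the 46 genes was 2201, 4713 and 4388 FPKM on the anterior side and 6500, 6159 and 5725 FPKM on the posterior side, or 0.584%, 0.890% and 0.834% against 1.08%, 1.17% and 0.941% of all FPKM in the table, without overlap between the domains. Of the 46 genes, 38 were above 0 in all 6 libraries. The number listed at 0 was 8, 2 and 4 on the anterior side of A, B and C and 1, 0 and 0 on the posterior side.

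The order of the members was broadly shared by the libraries. Across the 46 members, the Spearman correlation between pairs of libraries was 0.56 to 0.74 for pairs with anterior A and 0.62 to 0.94 for the others. All pairs share the gene-specific length and base composition of the members, so this is a description only. The highest mean levels were those of Psma7 (9.30), Psmb6 (8.44) and Psma2 (8.32), all of the core. The lowest were those of Psmf1 (1.64), Psmb8 (1.11) and Psmb9 (0.52). Psma7 was the highest member in 5 libraries, and Psmb6 was the highest in anterior A. The median member spanned 2.68 between its lowest and highest library, against 3.03 for all tested genes. Psma4 spanned least (0.58) and Psmd10 most (7.36), and 29 of the 46 were lowest in anterior A, ties counted there.

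**Figure D1:**
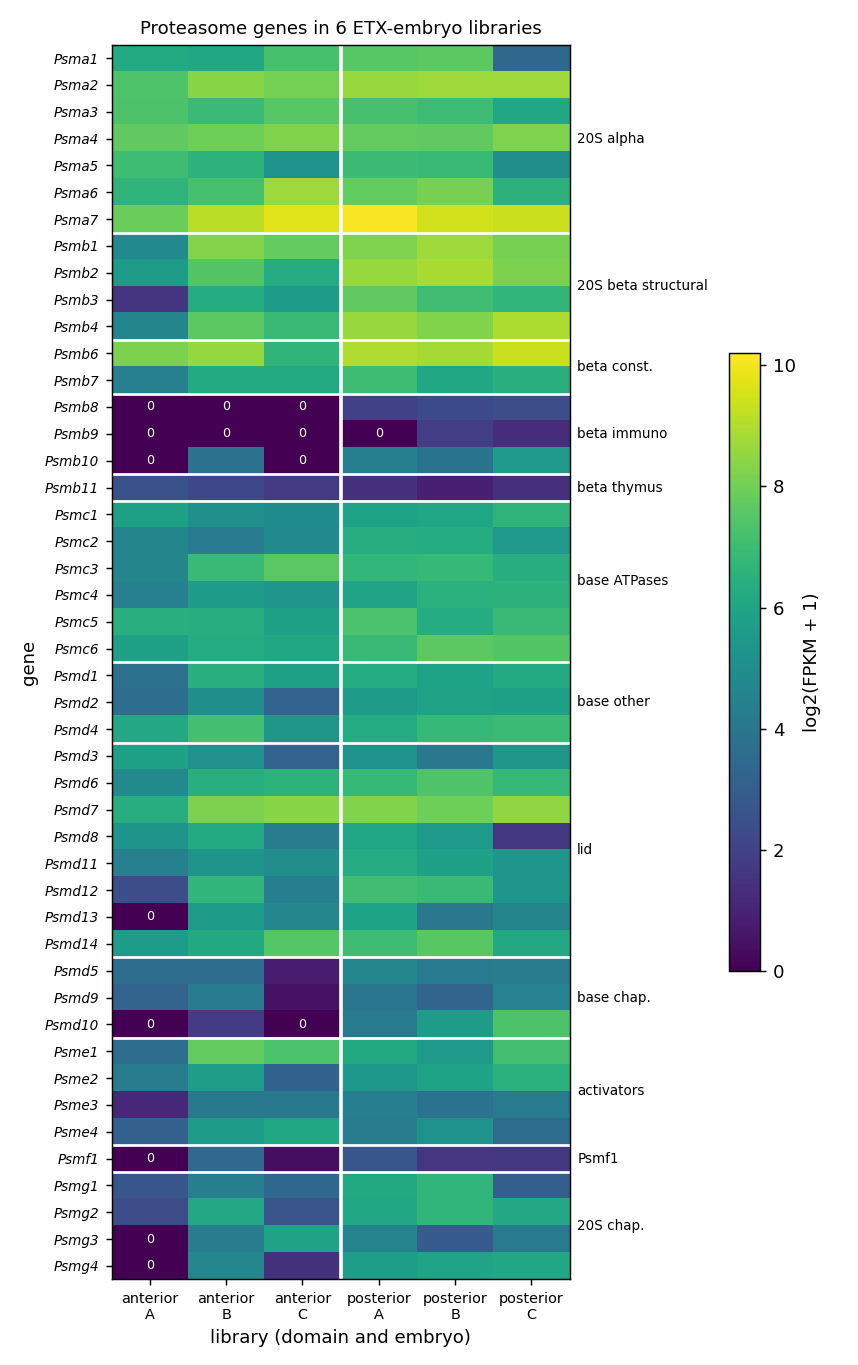
Level of each proteasome gene (rows, grouped by role) in the 6 libraries (columns), as colour on the log2(FPKM + 1) scale, with 0 printed where a gene is listed at 0. Anterior A has 8 entries at 0 and the posterior libraries have 1 in all, and Psma7 is the brightest row.

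The main comparison asks whether the posterior and the anterior piece differ, and 45 members passed the filter of a mean of at least 1 FPKM (all but Psmb9). On average 38 of the 45 were higher in the posterior pieces (84.4%), against 64.9% of all tested genes, and the median difference was 0.91, against 0.43. No member passed the adjusted threshold of 0.05 in limma with the embryo as a block (smallest adjusted p 0.52), and neither did any other gene (0% of the tested genes). At an unadjusted p under 0.05 there were 8 members higher in the posterior pieces (17.8%), against 7.24% of all tested genes. None was higher in the anterior pieces, against 0.788% of all tested genes. The 8 are Psmd10, Psmg4, Psmb2, Psmg2, Psmb4, Psmb10, Psmb8 and Psmb3. Of these, Psmb8 and Psmd10 reached the filter through the posterior pieces only, so they are no support for a difference. They are also among the 38 above and the 21 and 17 below. In 21 of the 45 (46.7%) the posterior piece had the higher value in each of the 3 embryos, against 21.5% of tested genes. For 17 (37.8%) every posterior library lay above every anterior one, against 12.3% of tested genes. Psmb11 alone had every anterior library above every posterior one, against 3.77% of tested genes, and it was the 1 member with the higher anterior value in each of the 3 embryos, against 8.25% of tested genes.

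Embryo A gave the largest differences and embryo B the smallest. The median difference of the tested members was 1.85, 0.30 and 0.57 by embryo, with 41, 28 and 30 of the 45 higher in the posterior library. Without embryo A the count at an unadjusted p under 0.05 fell to 4 (background 3.19%), and the median was 0.53 (all genes 0.17). Without anterior A alone the median was 0.49 (all genes 0.25) and the count 9 (background 5.65%). Without embryo C the median was 1.21 (all genes 0.47) and the count 7 (background 8.23%). Without anterior B alone the count was 15 (background 11.6%). Runs that left out a single library had no embryo block. Dropping the block alone, with all libraries kept, moved the count to 11 (background 8.36%). The number of members with separate domains was 28 without embryo B (background 29.4%) and 9 with each library centred on its median gene (background 7.14%).

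**Figure D2:**
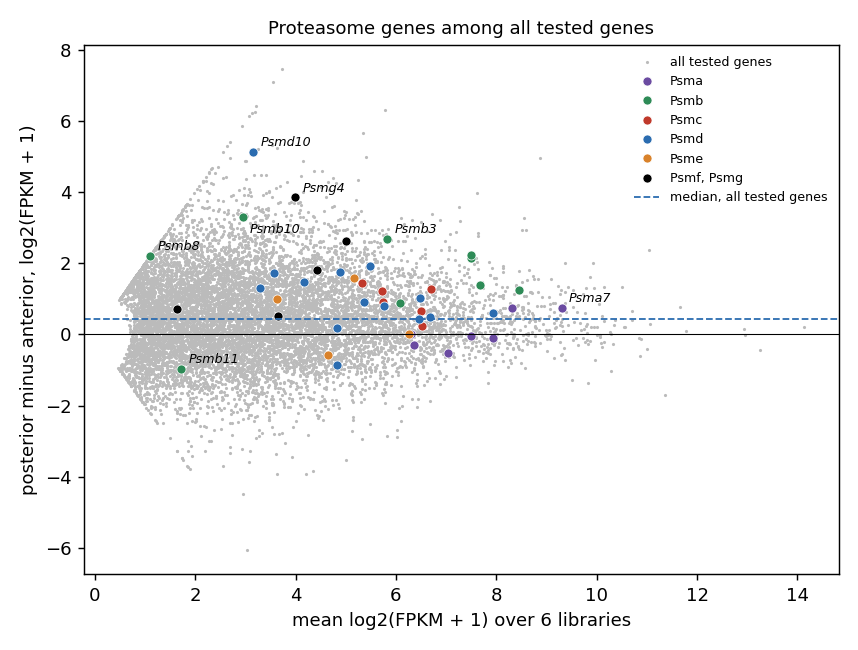
Mean level over the 6 libraries (horizontal, log2(FPKM + 1)) and posterior minus anterior difference (vertical, same scale) of all tested genes (grey) and the proteasome genes (coloured by gene family). The dashed line is the median of all tested genes, 0.43, and 38 of the 45 coloured points lie above 0.

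The alpha subunits, which form the outer rings and the gate of the core, showed no common direction. Their 7 differences ran from -0.51 (Psma3) to 0.74 (Psma7), with a median of -0.05. On average 3 of 7 were higher in the posterior pieces, against 64.9% of tested genes. None had an unadjusted p under 0.05 in limma. The direction of the median depended on embryo C, for without it the median was 0.79 (all genes 0.47), and without the library labelled posterior C alone it was 0.65. Without the library labelled anterior C it was 0.05, and with each library centred on its median gene it was -0.54.

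Psma4 (chromosome 9, 54950781 to 54958034) was the most even member of all. It was at 7.72, 7.95 and 8.27 on the anterior side and at 7.74, 7.69 and 8.23 on the posterior side, so the domains overlapped fully. Psma7 (chromosome 2, 180036367 to 180042464), the most abundant, was at 7.92, 9.15 and 9.72 against 10.13, 9.50 and 9.39. Its anterior and posterior ranges overlapped because of anterior C.

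Psma2 (chromosome 13, 14613242 to 14625673) was the only 1 of the 7 alpha genes with separate domains, against 12.3% of tested genes. It was at 7.39, 8.38 and 8.07 against 8.64, 8.71 and 8.71. The difference was 0.74 ± 0.58 (SE; limma adjusted p 0.73). Psma1 and Psma6 divided by embryo instead. Psma1 was at 6.24, 6.09 and 7.22 on the anterior side and at 7.55, 7.63 and 3.45 on the posterior side, so that it was higher in the posterior piece of A and B and lower by 3.77 in C. Psma6 did the same on a smaller scale (1.11, 0.90 and -2.17). Psma3 was at 7.36, 6.94 and 7.55 against 7.24, 7.02 and 6.07, lowest in the library labelled posterior C. Psma5 was at 7.04, 6.59 and 5.26 against 6.99, 6.89 and 5.03, so it was low on both sides of embryo C.

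The beta subunits stood higher on average in the posterior pieces. The median difference of Psmb1 to Psmb4, Psmb6 and Psmb7 was 1.76, and it was positive under every alternative run, from 1.16 without embryo A to 2.35 without anterior B. Psmb1 to Psmb4, which line the inner rings without a cutting site, had a median difference of 2.18. In 4 of 4 the posterior value was higher in each of the 3 embryos, against 21.5% of tested genes. Psmb2 (chromosome 4, 126677637 to 126709715) was at 5.57, 7.46 and 6.26 on the anterior side and at 8.64, 8.90 and 8.18 on the posterior side. All 3 posterior values lay above all 3 anterior ones, and the difference was 2.14 ± 0.64 (SE), with an unadjusted p of 0.0077 and a limma adjusted p of 0.52.

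Psmb4 (chromosome 3, 94884324 to 94886958) was at 4.66, 7.63 and 6.87 against 8.62, 8.26 and 8.94, again without overlap (2.22 ± 0.74, limma adjusted p 0.56). Psmb3 (chromosome 11, 97703434 to 97713500) was at 1.56, 6.33 and 5.55 against 7.70, 7.09 and 6.71 (2.69 ± 1.05, limma adjusted p 0.60). Its difference of 6.15 in embryo A came with the low value of anterior A, and in B and C it was 0.76 and 1.17. Psmb1 was at 4.87, 8.32 and 7.76 against 8.24, 8.72 and 8.12, where the anterior B value lay inside the posterior range.

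Since alpha and beta proteins enter the core in equal numbers, their genes were also compared inside each library, where a scaling factor of the library largely cancels. The median of the 6 beta genes Psmb1 to Psmb4, Psmb6 and Psmb7 minus the median of the 7 alpha genes was -2.60, 0.33 and -1.60 on the anterior side and 0.69, 0.80 and 1.61 on the posterior side. Every posterior library lay above every anterior one. The posterior minus anterior change of this gap was 3.29, 0.47 and 3.21 by embryo. With the Psmb5 entry described below added to the beta genes it was 3.20, 0.16 and 2.97. The gap was chosen after the values were seen and is given without a test.

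**Figure D3:**
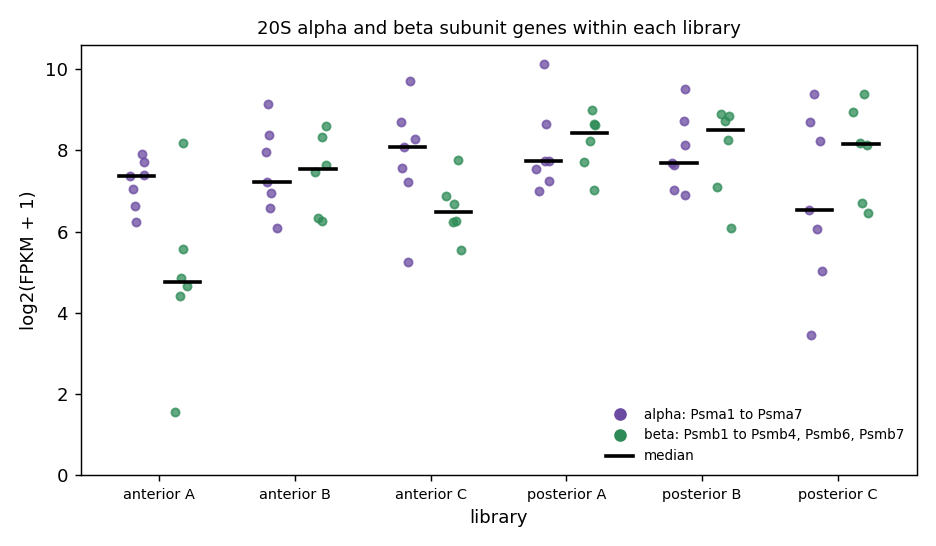
Level (vertical, log2(FPKM + 1)) of the 7 alpha genes (purple) and 6 beta genes (green) in each library, 1 point per gene, with the median as a black bar. The beta median lies below the alpha median in anterior A and C and above it in anterior B and the 3 posterior libraries.

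Of the 8 genes with an unadjusted p under 0.05, the sequence just before the start is shown for the 5 that have a stretch there outside annotated transcribed leaders. Psmb2 and Psmg2 have no window, and the window of Psmb8 has no such stretch. RefSeq (GRCm38.p6, the same build as mm10) gave promoter windows, from 250 bases before to 50 after the start, for 39 of the 46 members. It gave none for Psmb1, Psmb2, Psmb7, Psmc3, Psmd3, Psmd7 and Psmg2. Each sequence below is read 5′ to 3′ on the gene's strand and lies before the start. Capitals mark CCAAT on either strand (ATTGG on the other), the box bound by NF-Y, and GAAA, any 2 bases and GAAA again on either strand, a core of interferon-stimulated elements.
Psmd10 (chrX:140956729-140956906, minus strand): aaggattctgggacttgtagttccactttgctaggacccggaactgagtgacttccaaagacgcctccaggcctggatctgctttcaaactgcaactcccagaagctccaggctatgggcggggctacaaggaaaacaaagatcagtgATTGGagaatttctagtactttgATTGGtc
Psmg4 (chr13:34162714-34162963, plus strand): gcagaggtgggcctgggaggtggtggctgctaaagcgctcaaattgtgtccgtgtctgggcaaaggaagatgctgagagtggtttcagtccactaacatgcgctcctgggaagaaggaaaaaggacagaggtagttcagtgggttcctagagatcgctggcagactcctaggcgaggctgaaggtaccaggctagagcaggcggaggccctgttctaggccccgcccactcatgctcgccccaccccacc
Psmb10 (chr8:105938445-105938642, minus strand): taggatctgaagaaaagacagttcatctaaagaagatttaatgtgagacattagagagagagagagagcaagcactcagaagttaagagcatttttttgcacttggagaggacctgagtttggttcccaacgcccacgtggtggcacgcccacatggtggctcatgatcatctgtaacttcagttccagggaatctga
Psmb3 (chr11:97703184-97703398, plus strand): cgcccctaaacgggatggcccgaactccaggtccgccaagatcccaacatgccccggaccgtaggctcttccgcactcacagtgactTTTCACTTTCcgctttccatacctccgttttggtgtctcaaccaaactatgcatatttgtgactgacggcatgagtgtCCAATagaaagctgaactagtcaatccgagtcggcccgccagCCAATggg
Psmb4 (chr3:94886962-94887208, minus strand): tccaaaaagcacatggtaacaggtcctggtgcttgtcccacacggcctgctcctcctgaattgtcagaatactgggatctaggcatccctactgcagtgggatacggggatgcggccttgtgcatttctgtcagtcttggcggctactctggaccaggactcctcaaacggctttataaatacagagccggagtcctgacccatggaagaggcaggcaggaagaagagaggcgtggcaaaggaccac

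Counted from the start, with the base before it at -1, Psmd10 holds ATTGG at positions -47 and -24 (and CCAAT at -230, outside the printed stretch), and Psmb3 holds CCAAT at -85 and -43. Psmb3 also holds TTTCACTTTC, a match of the interferon-stimulated core on the other strand, at position -163, while the stretches of Psmb4, Psmb10 and Psmg4 hold none of the motifs searched. Counted over all windows, CCAAT was found in 14 of the 42 member windows (33.3%), against 37.4% of all 32851 windows. The interferon-stimulated core was found in 5 of the 42 (11.9%; Psmb3, Psmd4, Psmd9, Psme1 and Psmg4, the last 2 just after the start), against 3.44%. TGACNNNGC, the core of the antioxidant response element that NRF factors bind, was found in 5 of the 42 (11.9%; Psmb6, Psmc6, Psmd12, Psmd9 and Psme4), against 12.4%. The search covered both strands and the motifs do not overlap one another in the printed stretches. Some members have more than 1 start site, which is why 39 genes gave 42 windows. A match is only a match of letters.

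The cutting sites sit on the beta5, beta1 and beta2 subunits. Psmb5, Psmb6 and Psmb7 encode the constitutive forms, and Psmb8, Psmb9 and Psmb10 encode the forms of the immunoproteasome, which interferon induces and which makes peptides for antigen presentation. Psmb6 (chromosome 11, 70525324 to 70527858) was at 8.17, 8.59 and 6.69 on the anterior side and at 8.99, 8.84 and 9.38 on the posterior side, without overlap (1.25 ± 0.66, limma adjusted p 0.64). Psmb7 (chromosome 2, 38588046 to 38643952) was at 4.42, 6.25 and 6.24 against 7.02, 6.09 and 6.47, where posterior B lay inside the anterior range. Psmb5 appears only in a joined entry with the microRNA Mir686, so it is not among the 46. That entry ran against Psmb6 and Psmb7 in embryo C, at 4.61, 7.62 and 9.93 on the anterior side and at 7.22, 6.46 and 4.80 on the posterior side (-1.23 ± 1.20, limma adjusted p 0.77).

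Psmb8 (chromosome 17, 34198195 to 34201454) was listed at 0 in every anterior piece and at 2.88, 3.89 and 4.27 FPKM on the posterior side. The log2 difference was 2.22 ± 0.85 (SE; limma adjusted p 0.60). Since the anterior values are all 0, Psmb8 passed the filter through its posterior values alone and had to differ, so its p supports nothing. Psmb10 (chromosome 8, 105935728 to 105938392) was at 0, 13.8 and 0 FPKM on the anterior side and at 20.2, 14.0 and 43.5 FPKM on the posterior side (log2 difference 3.30 ± 1.21, limma adjusted p 0.57). In embryo B the pieces differed by only 0.02 in log2. Psmb9 (chromosome 17, 34182030 to 34187330) was below the filter, listed at 0 in 4 libraries, at 2.60 FPKM in posterior B and at 1.45 FPKM in posterior C. Its exons overlap those of Tap1 on the other strand.

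The share of each of these genes in its pair differed between the pairs. Psmb8 made up 1.91%, 4.30% and 13.7% of the FPKM of Psmb8 plus the Psmb5 entry on the posterior side. Psmb9 made up 0%, 0.568% and 0.218% of Psmb9 plus Psmb6 there. Psmb10 reached 13.5%, 17.3% and 33.2% of Psmb10 plus Psmb7 in the same libraries and 15.5% in anterior B. These shares have no counting interval, since the reads behind them are not known. The thymus form Psmb11 (chromosome 14, 54625310 to 54629556) ran the other way at a low level, at 4.94, 3.68 and 2.52 FPKM on the anterior side and at 1.72, 0.86 and 1.61 FPKM on the posterior side (log2 difference -0.96 ± 0.93, limma adjusted p 0.77).

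**Figure D4:**
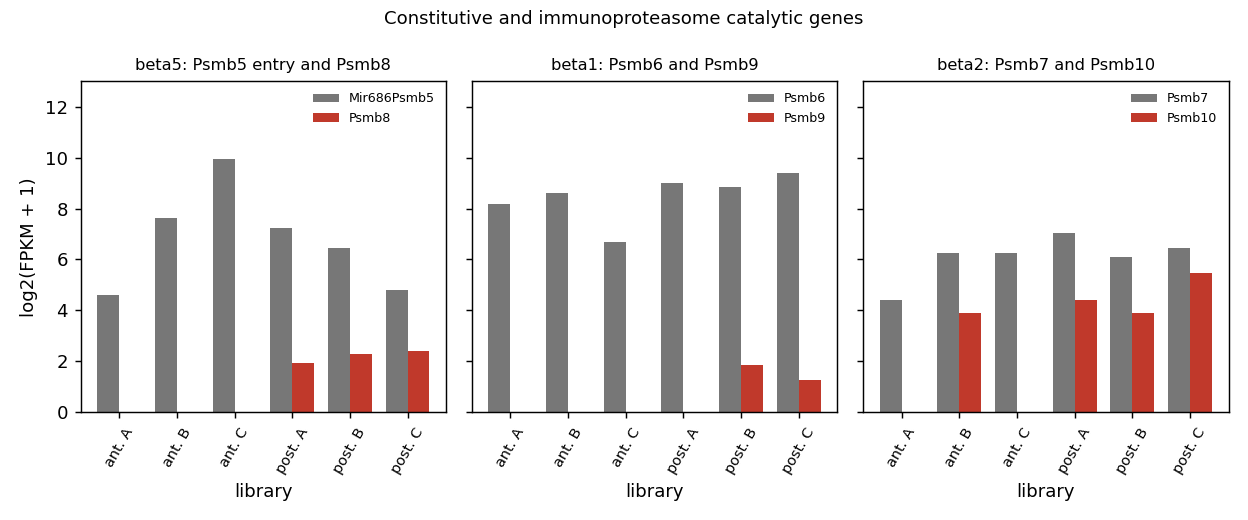
Level (vertical, log2(FPKM + 1)) of the constitutive gene (grey) and the immunoproteasome gene (red) of each cutting subunit in the 6 libraries. Psmb8 is at 0 in the 3 anterior libraries, Psmb9 in all of these and posterior A, and Psmb10 in anterior A and C.

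The genes that interferon induces along with the immunoproteasome were looked at as background. Of the listed genes 10 were measured and 9 of them were tested. The median difference of all 10 was -0.03, against 0.43 for all tested genes. On average 5 of the 10 were higher in the posterior pieces, against 64.9% of tested genes. Irf1, an interferon-induced transcription factor, was at 0, 0 and 2.14 on the anterior side and at 3.94, 3.94 and 4.81 on the posterior side, without overlap (3.52 ± 0.98, limma adjusted p 0.52). H2-K1, a class I antigen-presenting molecule, was at 4.17, 5.16 and 1.72 against 5.83, 4.65 and 6.17, and Irf9 was at 0, 3.20 and 0 against 1.29, 2.07 and 5.03. Irf8, a factor of immune cells, was above 0.16 only in anterior A, at 4.61. The listed genes thus had no common direction.

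The ATPases of the base, Psmc1 to Psmc6, form the ring that unfolds the substrate. All 6 were higher on average in the posterior pieces, against 64.9% of tested genes, by 0.24 (Psmc3) to 1.44 (Psmc2). The median was 1.07, with medians of 1.30, 0.94 and 1.18 by embryo. None had an unadjusted p under 0.05, and 4 of 6 had separate domains in the posterior direction, against 12.3% of tested genes. Psmc6 (chromosome 14, 45329823 to 45349074) was at 5.82, 6.32 and 6.07 on the anterior side and at 6.93, 7.63 and 7.46 on the posterior side. Its differences of 1.11, 1.30 and 1.39 were close to each other (1.27 ± 0.63, SE; limma adjusted p 0.63).

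Psmc4 (chromosome 7, 28041702 to 28050092) was at 4.46, 5.59 and 5.31 against 5.94, 6.53 and 6.54, and Psmc2 was at 4.68, 4.24 and 4.90 against 6.36, 6.30 and 5.47. Psmc1 was at 5.78, 5.11 and 4.97 against 5.90, 6.05 and 6.64. In each of these genes the lowest posterior value was above the highest anterior one. Psmc3 and Psmc5 had overlapping domains, and Psmc3 was higher in the anterior library of embryo C, at 7.61 against 6.36.

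The other base subunits dock ubiquitin and its carriers. Psmd2 (chromosome 16, 20651122 to 20663414), a scaffold of the base, was at 3.71, 5.09 and 3.21 on the anterior side and at 5.55, 5.89 and 5.85 on the posterior side. The posterior values were close together and lay above all anterior ones (1.76 ± 0.79, unadjusted p 0.051, limma adjusted p 0.62). Psmd1 and the ubiquitin receptor Psmd4 differed by 0.78 ± 0.80 and 0.44 ± 0.70, with overlapping domains.

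The lid removes the ubiquitin chain. Of its 8 genes 7 were higher on average in the posterior pieces, against 64.9% of tested genes, with a median difference of 0.75. None had an unadjusted p under 0.05, and medians by embryo were 1.87, -0.02 and 0.16. Psmd14 (chromosome 2, 61711694 to 61800376), the deubiquitinase of the lid, was at 5.62, 6.19 and 7.49 on the anterior side and at 7.03, 7.54 and 6.16 on the posterior side. It was higher in the posterior piece of A and B and lower in C (0.47 ± 0.76, limma adjusted p 0.87). Psmd6 and Psmd11 were the lid genes with separate domains, 2 of 8 against 12.3% of tested genes, with differences of 1.03 ± 0.68 and 0.90 ± 0.74.

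Psmd12 was at 2.45, 6.73 and 4.35 against 7.06, 6.90 and 5.37 (1.93 ± 0.94, limma adjusted p 0.63). Psmd13 was listed at 0 in anterior A, was at 5.55 and 4.72 in anterior B and C and at 5.93, 4.08 and 4.68 on the posterior side, so only embryo A differed by more than 1.47. Psmd8 (chromosome 7, 29174187 to 29180673) was the lid gene that was lower on average in the posterior pieces, at 5.28, 6.22 and 4.29 against 6.04, 5.52 and 1.66 (-0.86 ± 0.88). In embryos A and B the difference was 0.76 and -0.70, and in C it was -2.63.

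The Psmd series also holds chaperones that assemble the base and leave the finished particle. Psmd10, known as gankyrin (chromosome X, 140948425 to 140956711), differed more than any other member. It was listed at 0, 2.46 and 0 FPKM on the anterior side and at 17.8, 47.3 and 163 FPKM on the posterior side. In log2(FPKM + 1) the difference was 4.23, 3.80 and 7.36 in the 3 embryos and 5.13 ± 1.05 (SE) in all. The limma p was 7.3e-04 unadjusted and 0.52 adjusted. The anterior values averaged under the filter of 1 FPKM, so Psmd10 entered the test through its posterior values and its p is no support. Each posterior library lay above each anterior one, in embryo B too, but this rests on the same values and is no support either.

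Psmd5 was at 3.64, 3.65 and 0.83 on the anterior side and at 4.72, 4.25 and 4.31 on the posterior side, also without overlap (1.72 ± 0.96, limma adjusted p 0.65). Psmd9 was at 3.25, 4.21 and 0.48 on the anterior side and between 3.34 and 4.52 on the posterior side, with overlap. Both were lowest in anterior C.

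The chaperones of the core, Psmg1 to Psmg4, start the alpha ring. Their median difference was 2.21, and 2 of 4 had an unadjusted p under 0.05 and were higher in the posterior pieces, against 7.24% of tested genes. Psmg4 (chromosome 13, 34162964 to 34178172) was listed at 0 in anterior A, was at 4.71 and 1.51 in anterior B and C, and at 5.68, 5.95 and 6.13 on the posterior side. The posterior values were nearly level and lay above all anterior ones (3.85 ± 1.03, unadjusted p 0.0043, limma adjusted p 0.52). Psmg2 (chromosome 18, 67641587 to 67654181) was at 2.32, 6.14 and 2.65 against 6.10, 6.70 and 6.16 (2.62 ± 0.88, limma adjusted p 0.56). Anterior B reached the posterior level of both genes more nearly than anterior A or C.

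Psmg1 was at 2.74, 4.38 and 3.43 against 6.19, 6.70 and 3.09, so embryo C did not share the direction (1.81 ± 0.94). Psmg3 was listed at 0 in anterior A, was at 4.30 and 5.87 in anterior B and C and at 4.58, 2.93 and 4.24 on the posterior side, so it was higher in the anterior piece of B and C. Psmf1, a regulator that binds the core and is known in vitro as an inhibitor, was low: at 0, 3.47 and 0.36 against 2.72, 1.61 and 1.65 (0.72 ± 1.11, limma adjusted p 0.87).

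The activators cap the core in place of the base and lid. Psme1 and Psme2 form one cap, which interferon induces, Psme3 forms a nuclear one, and Psme4 encodes a large single-chain one. None had an unadjusted p under 0.05. None of the 4 had separate domains, against 12.3% of tested genes in the posterior direction and 3.77% in the anterior one. Psme1 (chromosome 14, 55578494 to 55581527) was at 3.69, 7.77 and 7.31 on the anterior side and at 6.19, 5.50 and 7.14 on the posterior side, a mean difference of 0.02 ± 0.91 (SE). Psme2 was at 4.28, 5.69 and 3.18 against 5.45, 5.91 and 6.50 and was higher in the posterior piece of all 3 embryos (1.57 ± 0.84, limma adjusted p 0.64). Psme2 has a close copy, Psme2b, and its value can hold reads of either.

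Psme3 was at 1.18 in anterior A and between 3.88 and 4.35 in all others. Psme4 was at 3.13, 5.61 and 6.09 against 4.29, 5.22 and 3.60 (-0.58 ± 0.91), higher in the anterior piece of B and C. Anterior A was the lowest library for all but 1 of these 4 genes, the exception being Psme2.

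**Figure D5:**
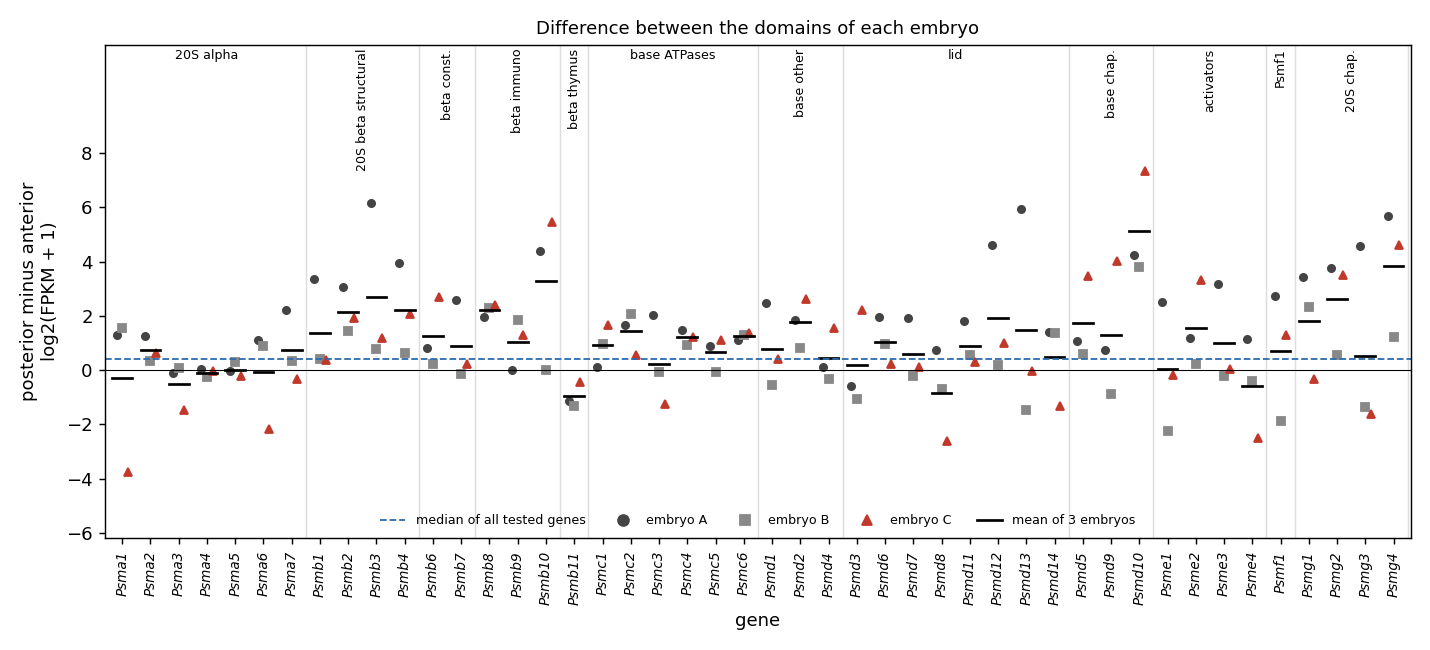
Posterior minus anterior difference in log2(FPKM + 1) (vertical) of each proteasome gene, grouped by role, with 1 point per embryo (circle A, square B, triangle C), the mean as a black bar and the median of all tested genes, 0.43, as a dashed line. The 3 points of Psmb8, Psmc4 and Psmc6 lie close together, and those of Psma1, Psmd13 and Psmg3 lie on both sides of 0.

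By class, the level relative to the library's median gene differed between the pieces by 0.40 ± 0.97 for core, 0.45 ± 0.11 for base, 0.54 ± 0.48 for the Psmd series, -0.01 ± 0.45 for activators and 2.46 ± 1.96 for assembly genes (mean posterior minus anterior of the class median ± SD, n = 3 embryos). The core and activator differences were smaller than their SD over embryos. Those of the Psmd series and the assembly genes were a little larger than it, and that of the base was several times larger, with the smallest SD of the 5 classes. Whether the classes differ from each other was not tested.

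Differences among the 3 embryos, whatever the domain, were also tested. With limma's F test no member and no other gene passed the adjusted threshold (0% of tested genes; smallest adjusted p 0.996 among members and 0.102 among all genes). At an unadjusted p under 0.05 there was 1 member (2.22%), Psmd8, against 2.77% of tested genes. Psmd8 was low in both libraries of embryo C.

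Other genes of the pathway, which assemble, regulate or supply the proteasome, were taken from a list of 34 names, of which 28 were in the table and tested. Of these, 15 were higher on average in the posterior pieces, against 64.9% of tested genes, with a median difference of 0.23, against 0.43. At an unadjusted p under 0.05 there were 2 higher in the posterior pieces, against 7.24% of tested genes, so their share is that of the background, and 0 higher in the anterior pieces, against 0.788%. The 2 are Pomp and Shfm1. Pomp, the chaperone that brings beta subunits onto the alpha ring, was at 2.62, 7.36 and 7.28 on the anterior side and at 8.16, 9.23 and 8.49 on the posterior side, without overlap (2.87 ± 0.87, limma adjusted p 0.54). Shfm1, the small lid subunit that lacks a Psm name, was at 6.87, 8.61 and 8.24 against 9.59, 10.49 and 8.54 (1.63 ± 0.64, limma adjusted p 0.61).

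The ubiquitin and shuttle genes of that list did not follow. Vcp, the segregase that extracts substrates, was at 8.04, 7.34 and 8.21 on the anterior side and at 7.56, 6.80 and 7.82 on the posterior side, a difference of -0.47 ± 0.59. The ubiquitin-activating enzyme Uba1 differed by -0.15 ± 0.75, and the ubiquitin fusion gene Rps27a by 0.34 ± 0.54. Nfe2l1, the factor that induces proteasome genes when the proteasome is inhibited, was at 3.72, 3.32 and 1.84 against 3.37, 2.66 and 4.07 (0.41 ± 1.01). Zfand2a and Zfand5, stress-linked proteasome partners, were higher in the posterior piece of all 3 embryos, by 1.90 ± 0.91 and 1.93 ± 0.94 (limma adjusted p 0.62 and 0.63). Zfand2a was at only 0.234, 0.083 and 0 FPKM on the anterior side, so it passed the filter through its posterior values. Its direction, its p and its place in the count of higher genes therefore support nothing.

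Among 9 tested targets of the NRF factors 8 were higher on average in the posterior pieces, against 64.9% of tested genes, with a median difference of 1.42, against 0.43. In the same direction 1, Nqo1, had an unadjusted p under 0.05, against 7.24% of tested genes. Nqo1, a quinone reductase, was listed at 0 in every anterior piece and in posterior C and was at 3.56 in posterior A and B. It passed the filter through posterior A and B alone and could only be higher in the posterior pieces. Its p and its place in the counts therefore support nothing. Txnrd1, a thioredoxin reductase, was at 4.74, 4.68 and 4.61 against 6.84, 5.64 and 6.05, without overlap (SE of the difference 0.72, limma adjusted p 0.63). Gclc, which makes the first step of glutathione synthesis, and Srxn1, a sulfiredoxin, differed by 1.67 ± 1.04 and 1.42 ± 0.99. Srxn1 was at 2.71, 0 and 0 FPKM on the anterior side, which averages under the filter. It too entered the test through its posterior values, and the median of 1.42 is its own difference. The count of 8 and that median are therefore no support for a difference. Sqstm1, an autophagy receptor that the same factors induce, differed by -0.01 ± 0.66. The cytosolic ribosomal protein genes, 66 housekeeping genes of another large complex, had a median difference of 0.17, with 0.54, -0.59 and 0.48 by embryo, and 4 of the 66 had separate domains in the posterior direction, against 12.3% of tested genes.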

How the data were processed

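The authors deposited one table of 12826 genes in 6 libraries, whose values were read as log2(FPKM + 1). Back-transformed, 99.1% to 99.5% of the values above 3 had at most 6 significant digits. Reads were mapped to the Ensembl 38.77 mouse genome and counted with HTSeq, per the labels' protocols. TopHat2 2.0.4, Cufflinks 2.0.2 and mm10 are named per the submitters' processing notes. Which tool gave the deposited log2 values was not given in the sources used here. Read counts are not known, so no counting intervals are given.

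Domains were compared with limma 3.58.1 (R 4.3.3, mean-variance trend, embryo as a block, two-sided, Benjamini-Hochberg adjustment over the 10914 genes averaging 1 FPKM or more). The block rests on the dissection, in which both pieces come from the same structure. Runs that left out a single library were fitted without the block. Deviations of same-embryo libraries correlated at -0.07, 0.04 and -0.03. The procedure was tested on simulated data whose noise was smaller than that of these data. That run checked the code and does not show the power of the test here. Smart-seq2 does not mark strand, and exons of 12 members overlap another gene. Copies with the same name stem exist for Psmb6, Psmb7 and Psme2, so their values are uncertain.

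Any proteasome gene could be named. Full values were due for the catalytic, thymus and activator genes, Psmf1, Psmd14, the smallest p, the highest and lowest means and genes at 0, and from each other list for up to 4 genes with the smallest p. The members and lists were chosen with earlier results of these data known, and the full values of Psma2, Psma4, Psma6, Psmd2, Psmd5, Psmd9, Psmg1 and the Psmc genes, and Vcp, Uba1, Rps27a, Nfe2l1 and Sqstm1, were added after they were seen.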

Additional observations from a re-analysis of the deposited data

How the results depend on the processing

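The median difference of the 45 members was positive under every alternative run. That of the alpha genes, -0.05, turned positive without embryo C (0.79), without posterior C (0.65) and without anterior C (0.05). The activator difference, -0.01 relative to the library median, was 0.31 relative to the ribosomal protein genes, both within its SD over embryos. No proteasome gene passed the adjusted threshold under any alternative. Without the replicate block, 11 members had an unadjusted p under 0.05 (background 8.36%), against 8 with it (background 7.24%). Leaving out a library or an embryo gave 4 to 15 such members, 17 to 28 members with separate domains and a median difference of 0.49 to 1.36. The share of all tested genes moved as well in these runs. It was 3.19% to 11.6% for the unadjusted p and 15.8% to 31.1% for separate domains. The count of 4 came without embryo A (background 3.19%). The count of 15 came without anterior B (background 11.6%), in a fit that also had no block, so part of it can come from that change. The count of 28 came without embryo B (background 29.4%). With each library centred on its median gene, a choice added after seeing the data, 9 members had separate domains (background 7.14%), against 17 (background 12.3%). Centring moved the share of all genes higher in the posterior pieces from 64.9% to 47.9%, and 32 of 45 members were then higher. Relative to the ribosomal protein genes, the base difference was 0.78, against 0.45. With 3 embryos and 2 residual degrees of freedom, and with anterior A the shallowest library, the depth of low genes limits these values. The cause of these shifts was not tested.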
